A study of Sus scrofa with 18 samples.

Results

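Tumours labelled scrotum were compared with tumours labelled mouth in a pig with a double knock-in (DIK), with 3 libraries of each label. The 6 libraries were chosen by genotype and tissue label alone, out of 18 in the series, and the labels were kept as deposited. All genes of the table were considered, and 9945 of its 27339 genes had enough reads in these libraries to be tested. The DIK genotype carries elements of the doxycycline-controlled Tet-on system and of the phiC31 integrase system, both used to switch genes on or off. Doxycycline (Dox) was given at 7 months of age to 3 DIK founders and to age-matched wild-type (WT) pigs, so the controls received the drug as well. Tumours grew in the nose, mouth and scrotum of 1 founder, and its tissue and that of WT pigs was taken 8 months after induction. All 6 tumour libraries, and the 3 labelled nose, therefore come from 1 animal, and the 9 WT libraries come from normal tissue with the same 3 labels. Nothing in the labels says that the 3 libraries of a label were separate tumours, so the p-values reflect only how these libraries vary, and that variation may be technical. The sources used here do not give the genes joined to the inducible promoter or the cells in which they were on.

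Mouth lining and scrotal skin are both covered by stratified squamous epithelium, in which keratinocytes divide in a basal layer and mature on their way to the surface. In skin they replace basal keratins by KRT1 and KRT10 and end as a cornified layer of crosslinked protein and lipid, whereas lining mucosa of the mouth and oesophagus makes KRT4, KRT13 and cornulin (CRNN) and stays moist. Cells also keep a record of body position in their patterning genes: posterior HOX genes are on in the trunk, limbs and genital region and off in the face, where DLX genes pattern the jaw.

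The tumour libraries labelled mouth held 3033987 to 3940709 counts and those labelled scrotum 2024959 to 3939949, with scrotum replicate 3 the shallowest. The tested genes took 99.3% to 99.5% of the counts of each library. Levels are given as CPM, the counts of a gene per 1000000 counts of the scaled library, which is not corrected for gene length, so levels are compared between libraries and not between genes. CPM were scaled over all 18 libraries, while log2 differences and their tests come from a fit of the 6 tumour libraries, unless another is named. A total of 3 counts in 1 library corresponded to 0.727 to 1.87 CPM. Log CPM correlated across genes at 0.941 to 0.967 between libraries of the same label and at 0.855 to 0.891 between labels. Genes are not independent replicates. The first principal component, with 64.1% of the variance, separated the labels, and the second, with 14.7%, set scrotum replicate 3 apart from the other two. In bulk tissue, fewer cells of a type and less RNA per cell cannot be told apart.

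Genes of body position went against the tissue labels. The summed level of the posterior HOX genes was 13.3, 22.1 and 22.9 CPM in the tumour libraries labelled mouth and 4.46, 4.64 and 0.624 CPM in those labelled scrotum. Every library labelled mouth was above every library labelled scrotum, and the exact two-sided permutation test over 3 against 3 libraries gave p = 0.1, the smallest it can give. The same order held in WT tissue, with 69.4 ± 17.1 CPM (SD, n = 3) under the mouth label and 6.65 ± 1.06 CPM (SD, n = 3) under the scrotum label. The nose tumours were at 5.98 ± 1.55 CPM (SD, n = 3). None of the 17 posterior HOX genes in the table had enough reads for the filter. HOXC9, a trunk and hindlimb gene, had 55 counts in the tumour libraries labelled mouth and 0 in those labelled scrotum, so it was at least 13.3-fold lower with the scrotum label, taking 3 counts over the group as the limit. HOXA10 had 37 counts against 0 (at least 8.92-fold lower), HOXA9 had 36 against 0 (at least 8.68-fold lower) and HOXC8 had 17 against 0 (at least 4.10-fold lower). Without any filter, edgeR called 4 posterior HOX genes lower with the scrotum label and 0 higher, where 3.86% of all genes were called lower and 4.64% higher. Germ cell genes were at or near 0 under both labels: of 15 listed, 10 had no count in any of the 6 tumours, and their summed level was 1.58 to 2.18 CPM under the mouth label and 0 to 1.12 CPM under the scrotum label. The libraries are therefore called by their labels throughout, and no direction below is a statement about the anatomical mouth or scrotum.

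**Figure D1:**
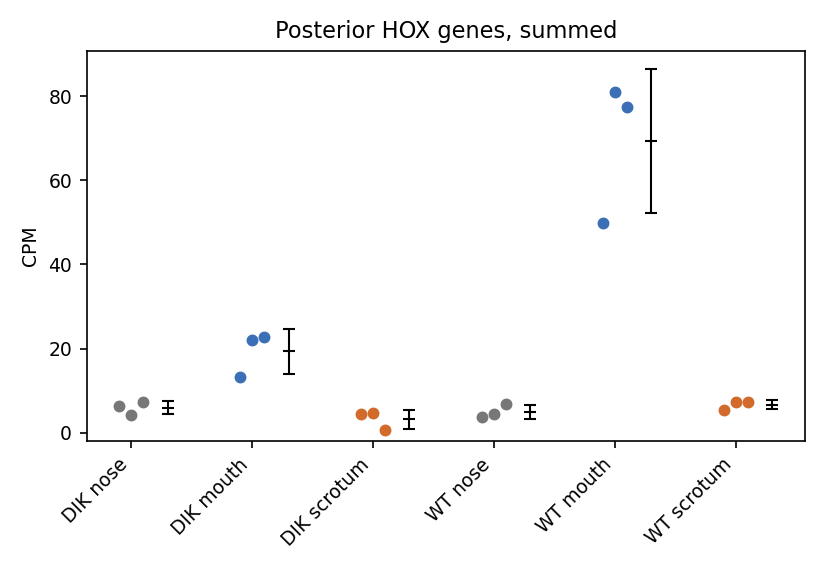
Summed level of the posterior HOX genes in all 18 libraries, in CPM on a linear axis, by genotype and tissue label. Points are libraries, and the bars beside them are the mean ± SD of 3 libraries. Posterior HOX genes are highest under the mouth label in both genotypes (13.3 to 22.9 CPM in tumours labelled mouth against 0.624 to 4.64 CPM in those labelled scrotum).

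Of the 11 tested members of a jaw and face patterning list, 5 rose, 1 fell and 5 were not called, with a median log2 difference of 0.39 against -0.0020 over all genes tested. With all 18 libraries in 1 fit 3 members were called higher and 0 lower. Members that rose included PITX1 by 3.26 ± 0.27 (SE from edgeR, as for each log2 difference below), FOXE1 by 2.77 ± 0.50, MSX1 by 2.52 ± 0.55 and DLX4 by 1.58 ± 0.36 on the log2 scale. TFAP2A, a regulator of face ectoderm and epidermis, fell by 0.70 ± 0.22, a call that was lost without mouth replicate 1 or 2 or any 1 of the 3 scrotum libraries (log2 differences -0.75 to -0.56, adjusted p 0.0651 to 0.175). Of 4 tested trunk, limb and genital genes, EN1, which patterns the ventral limb and skin, fell by 2.49 ± 0.49 (adjusted p 0.00106) and the other 3 were not called, with 1 lower in the fit of 18 libraries too. EN1 was at 4.42, 7.51 and 7.44 CPM under the mouth label and 0.836, 1.43 and 1.25 CPM under the scrotum label.

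Across the 9945 genes tested, 698 were higher and 617 lower with the scrotum label at an adjusted p under 0.05 (edgeR quasi-likelihood test, Benjamini-Hochberg adjustment). The share called was 13.2%, made of 7.02% higher and 6.2% lower, and this is the background for each count of list members given here. Of the calls, 527 higher and 459 lower changed at least 2-fold, and 61 higher and 48 lower at least 16-fold. The 3 libraries of each label did not overlap for 29.8% of all genes, with the scrotum label higher for 14.4% and lower for 15.4%. With scaling by library size alone, the median of all genes moved by -0.32 on the log2 scale and the share of calls that were higher went from 53.1% to 23.0%, with 438 higher and 1465 lower. Where all 18 libraries shared 1 estimate of spread, 236 of 12895 were called higher (1.83%) and 136 lower (1.05%), and without scrotum replicate 2, among the 6 libraries, 558 and 403. Only 76 of the 205 genes named by the rule kept their call in the fit of 18 libraries, so the counts of list members below are given with that fit as well.

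**Figure D2:**
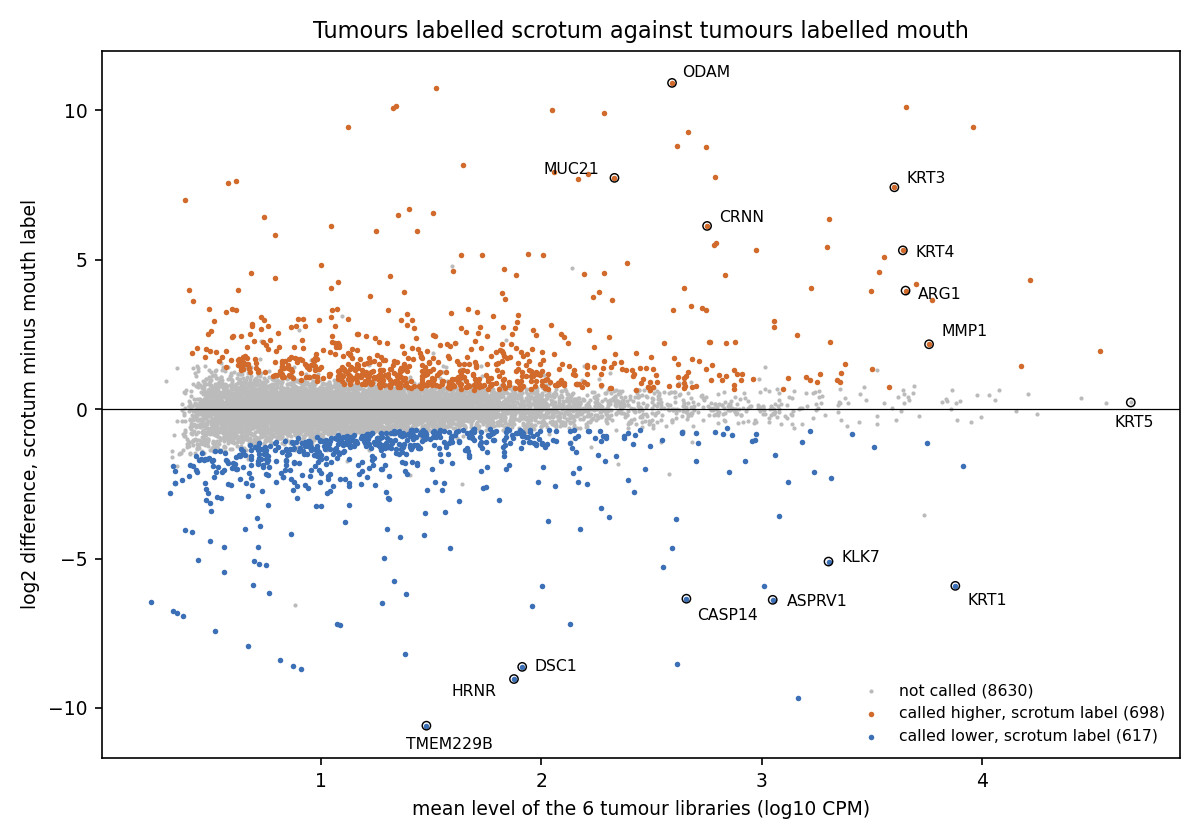
Log2 difference between tumours labelled scrotum and tumours labelled mouth (vertical) against the mean level over the 6 libraries in log10 CPM (horizontal), 1 point per tested gene. Orange points are the 698 genes called higher, blue points the 617 called lower, grey points those not called, and ringed genes are described in the text. The largest differences reach 10.92 (ODAM) and -10.59 (TMEM229B), while KRT5, at the right edge, lies near 0.

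Genes of moist lining epithelium were higher in tumours labelled scrotum. Of 14 tested members of an oral mucosa list, 11 rose, 0 fell and 3 were not called, with a median log2 difference of 2.44. KRT78, a keratin of upper mucosal layers, measured 52.4, 150 and 70.4 CPM under the mouth label and 3862, 3363 and 4340 CPM under the scrotum label. It rose by 5.41 ± 0.38 on the log2 scale (adjusted p 8.78e-08), with the lowest scrotum library far above the highest mouth library. CRNN, the cornulin of oesophageal and oral lining, was at 9.79, 26.7 and 11.2 CPM against 1417, 545 and 1383 CPM, a rise of 6.13 ± 0.60 (adjusted p 0.000376). MUC21, a membrane mucin, was nearly even within each label, with 1.26, 3.15 and 1.33 CPM against 452, 429 and 402 CPM, and rose by 7.74 ± 0.33 (adjusted p 9.25e-14). MAL, a membrane raft protein, rose by 3.66 ± 0.26, EMP1 by 2.94 ± 0.23, the ammonium transporter RHCG by 2.47 ± 0.30 and sciellin (SCEL) by 2.41 ± 0.22. ENDOU, NCCRP1 and GPX2 were not called, with log2 differences of 0.14, 0.08 and -0.69. With all 18 libraries in 1 fit, 7 of these members were called higher.

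KRT4, the classical keratin of mucosal lining, was uneven within the scrotum label. It measured 166, 268 and 217 CPM under the mouth label and 13093, 1943 and 10508 CPM under the scrotum label, with replicate 2 lowest. The log2 difference was 5.31 ± 0.87 with an adjusted p of 0.019. The call was lost without mouth replicate 2 (5.49, adjusted p 0.0798) or 3 (5.31, adjusted p 0.072), and without scrotum replicate 1 (4.89, adjusted p 0.0528) or 3 (5.10, adjusted p 0.0714). Without scrotum replicate 2 the difference was 5.79, with an adjusted p of 2.72e-13. KRT3, a keratin of cornea and masticatory mucosa, showed the same uneven pattern, with 44.8, 31.0 and 64.9 CPM against 10080, 2612 and 11137 CPM. Its rise of 7.42 ± 0.79 (adjusted p 0.00201) held without each library in turn.

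Genes of the cornified skin surface ran the opposite way. Of 25 tested members of a cornified epidermis list, 15 fell, 3 rose and 7 were not called, with a median log2 difference of -1.76. HRNR, hornerin of the granular layer, was at 139, 177 and 135 CPM under the mouth label and had 2 counts in all 3 libraries of the scrotum label (0.279, 0.357 and 0 CPM). The ratio of mouth to scrotum was 607, with an exact 95% counting interval of 168 to 5016. DSC1, the desmocollin of upper epidermis, measured 182, 205 and 103 CPM against 0.279, 0.357 and 0.624 CPM, a ratio of 437 (interval 149 to 2121) that rests on 3 counts under the scrotum label. ASPRV1, a protease that processes filaggrin, measured 1715, 3257 and 1678 CPM against 23.1, 23.5 and 33.7 CPM, and fell by 6.38 ± 0.34 (adjusted p 2.25e-11). CASP14, the caspase of cornifying cells, measured 711, 1502 and 488 CPM against 8.36, 15.3 and 9.35 CPM, and fell by 6.34 ± 0.49 (adjusted p 7.45e-06). CALML5, a calcium-binding protein of late keratinocytes, fell by 5.93 ± 0.60, and KRT77 was at 5.37, 12.8 and 10.9 CPM against 1 count in all 3 scrotum libraries (a ratio of 80.3, interval 14.1 to 3198). For these genes no library of either label overlapped the other.

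KRT1, the main suprabasal keratin of skin, was even under the mouth label at 14651, 15667 and 14251 CPM and spread under the scrotum label at 381, 39.2 and 311 CPM. The log2 difference was -5.91 ± 1.02, with an adjusted p of 0.0261. The call was lost without mouth replicate 2 (-5.88, adjusted p 0.0781) or 3 (-5.94, adjusted p 0.0673) and without scrotum replicate 1 (-6.38, adjusted p 0.0808) or 3 (-6.15, adjusted p 0.093), and was kept without scrotum replicate 2 (-5.40, adjusted p 4.95e-12). With the replicate number fitted as a block KRT1 was not called (-6.34, adjusted p 0.0803, edgeR). Its partner KRT10 was at 10180, 10752 and 9305 CPM against 1377, 183 and 1012 CPM and did not pass the test (-3.54 ± 0.80, adjusted p 0.0533). It passed without scrotum replicate 2 (-3.05, adjusted p 2.43e-08). The lowest KRT1, KRT10, KRT3 and KRT4 levels under the scrotum label were thus all in replicate 2.

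Not every surface gene followed. Involucrin (IVL), an early crosslinked envelope protein, measured 7106, 8766 and 7237 CPM against 2778, 4478 and 3274 CPM, a fall of 1.13 ± 0.23 (adjusted p 0.00121). TGM3, a crosslinking transglutaminase, rose by 4.07 ± 0.26 (adjusted p 9.02e-11), from 215, 149 and 206 CPM to 2797, 2872 and 3782 CPM. Cornifelin (CNFN), chosen after its values were seen, rose by 1.16 ± 0.24 (adjusted p 0.00168), and the loricrin gene LOR, at mean levels of 301 and 544 CPM, was not called. Suprabasin (SBSN) and the protease inhibitor SPINK5 were not called either, with log2 differences of 0.22 and 0.73. With all 18 libraries sharing 1 estimate of spread, 2 members of the list were called lower and 0 higher, and with the 12 libraries of both labels 1 was called lower, where 0.734% of all genes were called lower and 1.71% higher (2.44% in all). The sum over the list was 51752 to 68857 CPM under the mouth label and 20188 to 29174 CPM under the scrotum label, and in the WT scrotum libraries it ran from 94.3 to 70450 CPM.

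**Figure D3:**
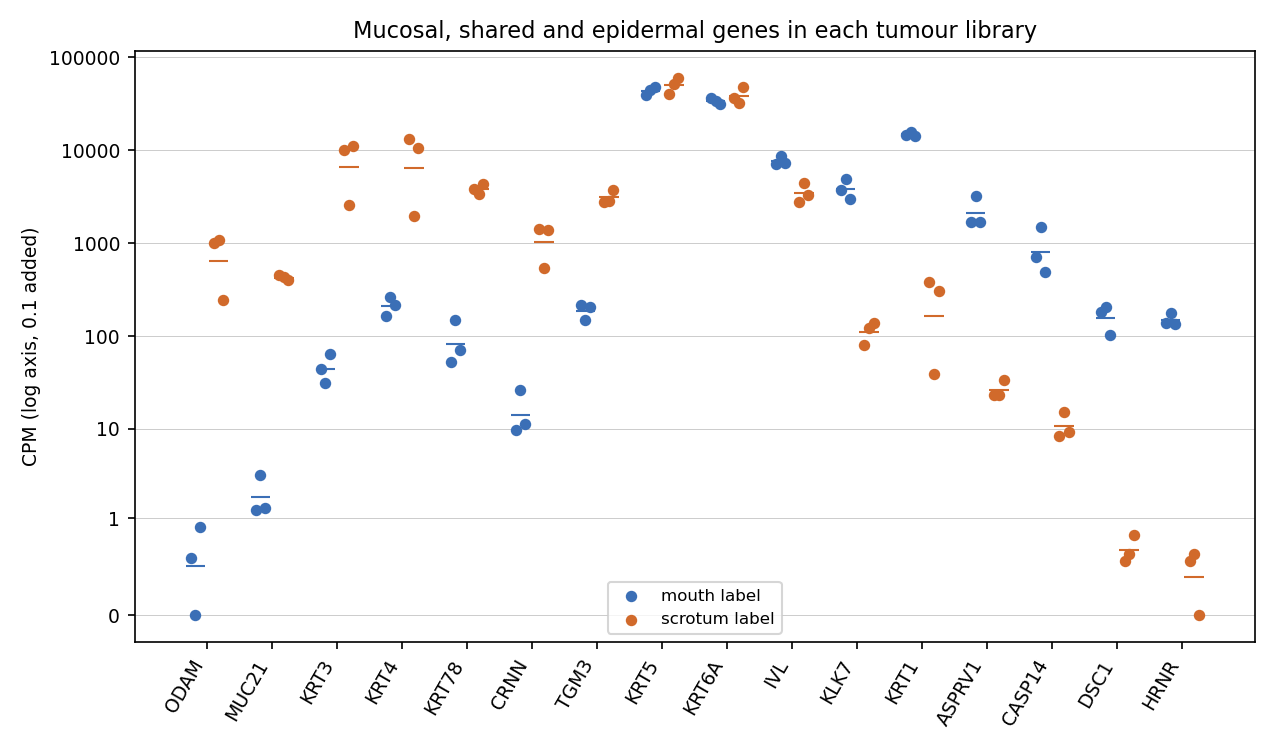
Level of 16 genes in each of the 6 tumour libraries, in CPM on a log axis with 0.1 added, blue for the mouth label and orange for the scrotum label, with a short line at the mean of the log values. Genes to the left (ODAM to TGM3) are higher in all 3 libraries labelled scrotum, KRT5 and KRT6A overlap, and those from IVL to HRNR are higher in all 3 libraries labelled mouth.

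The enzymes that make and process skin barrier lipids were on the side of the cornified genes. Of 15 tested members, 7 fell, 0 rose and 8 were not called, with a median of -0.73. The lipase LIPM measured 24.0, 28.6 and 20.2 CPM against 3.35, 1.78 and 2.49 CPM, a fall of 3.21 ± 0.34 (adjusted p 4.47e-07). ACER1, a ceramidase of the epidermis, fell by 2.52 ± 0.46 and PNPLA1, which makes acylceramide, by 2.02 ± 0.39. SPTSSB, outside the list and a subunit of the enzyme that starts sphingolipid synthesis, was at 42.3, 45.1 and 25 CPM against 3 counts in the scrotum libraries, a ratio of 99.8 (interval 33.9 to 486). FABP5, also outside it and the fatty acid binding protein of epidermis, fell by 1.91 ± 0.28 (adjusted p 6.53e-05), from 14179, 11726 and 12830 CPM to 2870, 2216 and 5039 CPM. Where all 18 libraries shared 1 estimate of spread, 0 members of the lipid list were called (edgeR).

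Kallikreins include the serine proteases that let skin surface cells shed. Of 11 tested in their cluster, KLK5, KLK6, KLK7, KLK8 and KLK11 fell, KLK12 rose and 5 were not called. In the fit of 18 libraries 1 was called higher and 1 lower, and KLK5 (adjusted p 0.0787), KLK7 (0.149), KLK8 (0.166) and KLK11 (0.556) lost their calls at log2 differences of -5.94, -5.11, -4.64 and -1.49. KLK7 measured 3785, 4899 and 3029 CPM under the mouth label and 79.7, 123 and 138 CPM under the scrotum label, a fall of 5.10 ± 0.29 (adjusted p 2.71e-11). KLK5, which activates the others, measured 144, 298 and 154 CPM against 4.74, 2.50 and 1.87 CPM and fell by 5.90 ± 0.38 (adjusted p 1.61e-09). KLK6 fell by 3.57 ± 0.34 and KLK8 by 4.65 ± 0.33. KLK11, chosen after its values were seen, fell by 1.5 ± 0.26. KLK12, also chosen after its values were seen, measured 2.21, 1.70 and 2.92 CPM against 46.6, 15.3 and 31.8 CPM and rose by 3.78 ± 0.42 (adjusted p 4.76e-06). CST6, a cystatin that inhibits cysteine proteases of the skin, fell by 3.99 ± 0.45, from 245, 426 and 176 CPM to 26.8, 8.56 and 16.8 CPM.

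Opposite changes lay next to each other in the genome. In the RefSeq order of protein-coding genes, the epidermal differentiation cluster from LOR to TCHHL1 has 27 genes, of which 21 were tested, 9 rose, 7 fell and 5 were not called. CRNN, which rose by 6.13, stands directly beside HRNR, which had a ratio of 607 the other way. LOC100513083, on the far side of HRNR, fell by 9.68 ± 0.37 from 2574, 3632 and 2513 CPM to 2.23, 3.57 and 5.61 CPM. Further along the cluster towards LOR, SPRP rose by 1.46 ± 0.24 (8340, 8654 and 7143 CPM against 16791, 20405 and 28429 CPM) and LOC100157968 by 3.65 ± 0.25 (773, 1121 and 735 CPM against 9514, 11770 and 11494 CPM). Among type II keratins from KRT84 to KRT18, 13 of 22 genes were tested, 4 rose and 2 fell: KRT1 and KRT77 stand beside LOC100155249, KRT3 and KRT4 in that order, with KRT78 close by. LOC100155249, chosen after its values were seen, rose by 5.16 ± 0.61. In the kallikrein cluster from KLK1 to KLK14, 11 of 13 were tested, 1 rose and 5 fell. In the fit of all 18 libraries 2 genes of the epidermal differentiation cluster were called higher and 1 lower, and 4 type II keratins higher and 0 lower. The genes with a LOC identifier above were chosen after their values were seen, and members of these families can share reads with near-identical copies, so their values are uncertain.

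**Figure D4:**
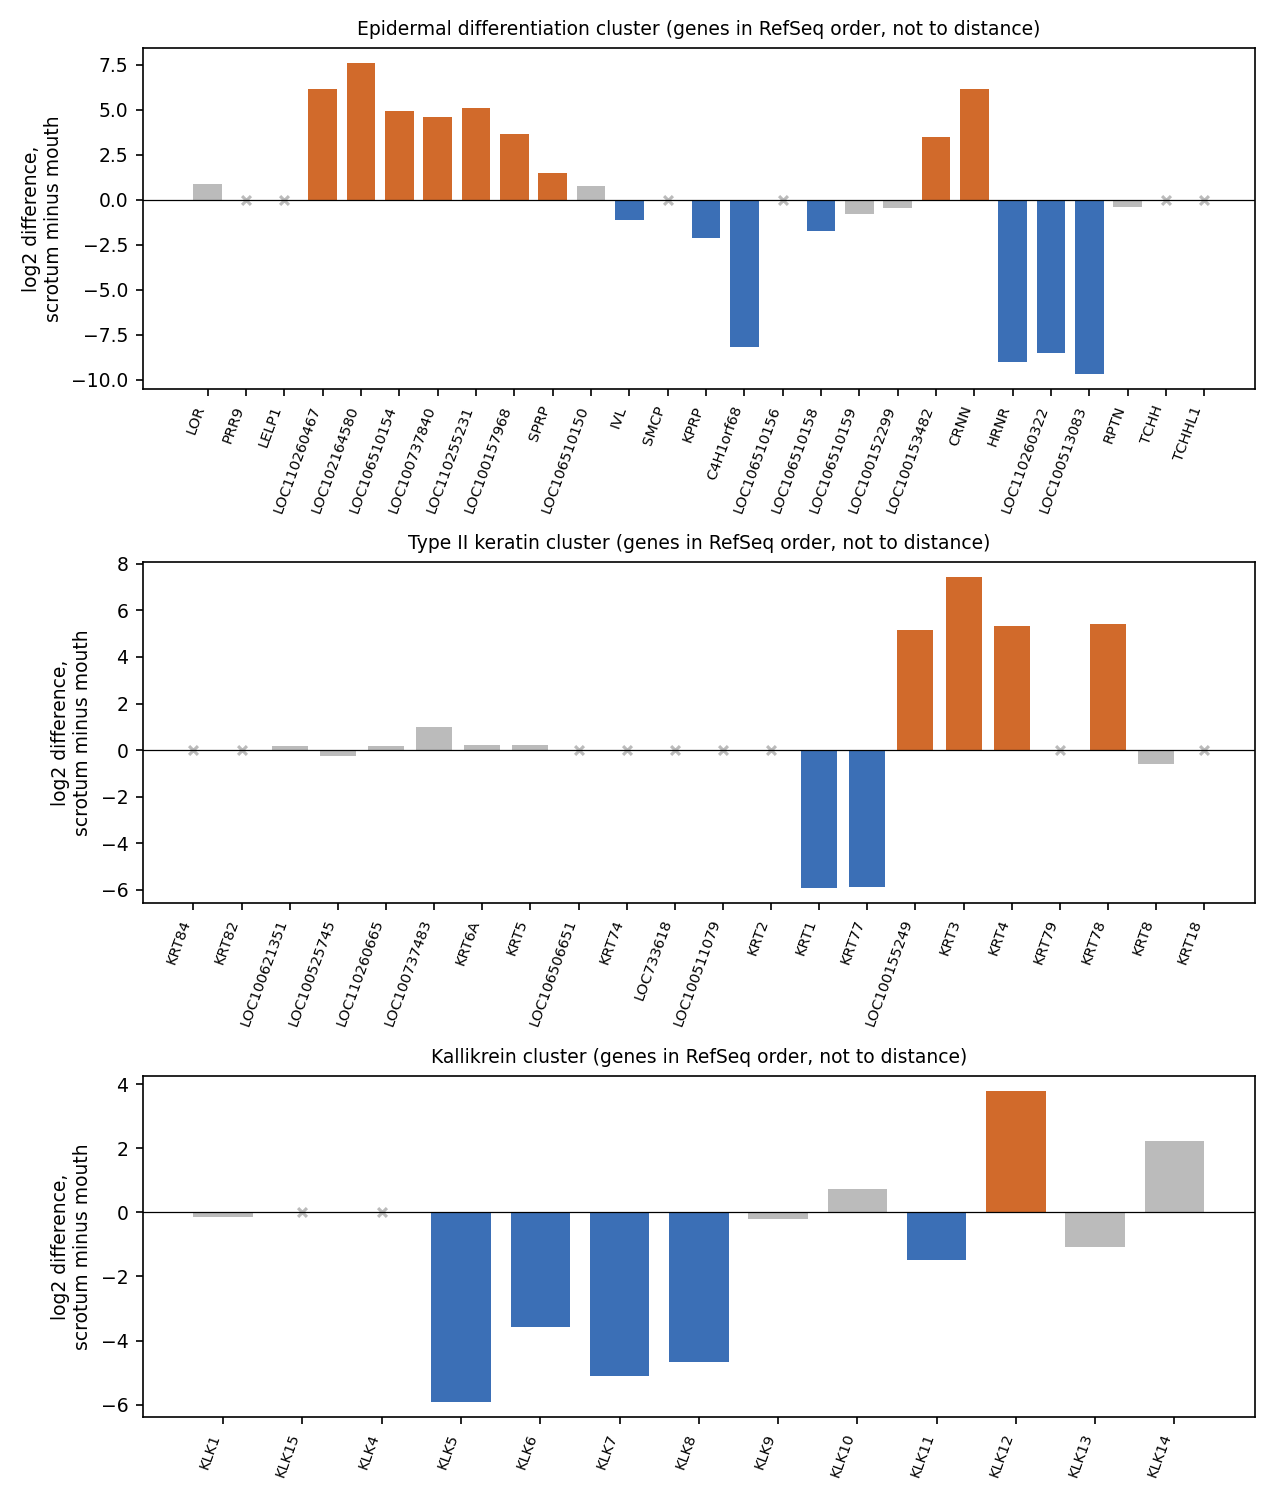
Log2 difference between tumours labelled scrotum and mouth for each protein-coding gene of 3 gene clusters, in the order of the RefSeq annotation and not to distance. Orange bars rose, blue bars fell, grey bars were not called and crosses were not tested. Bars of opposite colour adjoin at CRNN and HRNR, at KRT77 and LOC100155249, and at KLK11 and KLK12.

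Some of the largest differences were in transcripts without a gene name, chosen here after their values were seen. LOC110260466, annotated in RefSeq as a long noncoding RNA, lies inside the epidermal differentiation cluster beside LELP1. It measured 20.2, 24.5 and 33.0 CPM under the mouth label and 16614, 18387 and 19175 CPM under the scrotum label, a rise of 9.45 ± 0.33 (adjusted p 5.88e-15). The libraries of each label were close to each other and the labels were far apart. LOC106507819, also annotated as noncoding, is near ODAM and the casein gene CSN3 and rose by 10.11 ± 0.39, from 6.63, 8.48 and 9.04 CPM to 8562, 13132 and 5315 CPM. LOC100515166, which stands next to KRT15 in the type I keratin cluster, rose by 4.32 ± 0.27, from 1314, 2043 and 1365 CPM to 32855, 26416 and 34363 CPM. The sources used here give no strand setting, so reads of overlapping genes cannot be told apart.

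Of 17 tested basal keratinocyte genes, 3 rose, 1 fell and 13 were not called, with a median of 0.15 that turned to -0.19 with library size alone. When all 18 libraries were fitted together 0 were called. KRT5, the basal keratin, measured 38955, 44096 and 48031 CPM against 39970, 51345 and 60561 CPM, and was not called (0.22 ± 0.23, adjusted p 0.595). TP63, the master regulator of squamous cells, measured 80.8, 55.7 and 66.2 CPM against 51.8, 47.8 and 44.3 CPM and was not called (-0.48 ± 0.22, adjusted p 0.163), but with library size alone it was called lower (-0.81, adjusted p 0.0157). ITGB4, the hemidesmosome integrin, rose by 1.24 ± 0.27 and LAMA3, a laminin chain that it binds, by 1.13 ± 0.27. ITGB4 and LAMA3 were not called when all 18 libraries shared 1 estimate of spread, nor LAMA3 with library size alone. Among 8 genes of wounded or stressed keratinocytes 0 rose and 1 fell (SERPINB2, by 0.98 ± 0.24, not called with 18 libraries), and KRT6A, the keratin of wounds and tumours, was at 36277, 33559 and 31879 CPM against 36689, 32461 and 47635 CPM (0.21 ± 0.23, adjusted p 0.613). With library size alone the differences of KRT5 and KRT6A turned to -0.13 and -0.14. Cell junction genes were mixed: of 21 tested, 4 rose, 1 fell and 16 were not called. The fit of 18 libraries called 0 higher and 1 lower, and library size alone 4 higher and 5 lower. The fall was GJA1, connexin 43, which went from 856, 862 and 548 CPM to 69.1, 47.4 and 60.5 CPM, by 3.67 ± 0.26 (adjusted p 4.08e-10). CLDN17, a claudin of tight junctions, was at 0, 0.485 and 0.266 CPM against 82.8, 113 and 68.0 CPM, a ratio of 334 (interval 114 to 1622) that rests on 3 counts under the mouth label.

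Regulators of squamous maturation split. Of 19 tested, 6 rose, 1 fell and 12 were not called, with a median of 0.27 that turned to -0.04 with library size alone. GATA3, a factor of epidermal and hair differentiation, measured 27.8, 51.4 and 34.0 CPM against 3.62, 1.07 and 1.87 CPM, and fell by 4.0 ± 0.38 (adjusted p 8.07e-08). SOX21, a hair and skin factor outside the naming rule, fell by 4.17 ± 0.48, from 12, 14.8 and 15.2 CPM to 0.558, 1.43 and 0 CPM. ELF3, an epithelial ETS factor, measured 8.52, 10.7 and 10.1 CPM against 113, 224 and 44.3 CPM and rose by 3.69 ± 0.56 (adjusted p 0.00472). PRDM1 (BLIMP1), which drives the last steps of keratinocyte maturation, rose by 1.70 ± 0.23 and OVOL1 by 1.17 ± 0.25. In the fit of all 18 libraries ELF3 was called and GATA3, SOX21, PRDM1 and OVOL1 were not.

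Secreted defence and gland genes gave some of the widest gaps. ODAM, a secreted protein of tooth and gum epithelium, measured 0.316, 0 and 0.797 CPM under the mouth label and 1006, 1097 and 248 CPM under the scrotum label, a rise of 10.92 ± 1.01 (adjusted p 0.00106). DEFB1, a beta-defensin, measured 2.53, 1.70 and 3.46 CPM against 786, 845 and 1721 CPM, and rose by 8.78 ± 0.44 (adjusted p 8.20e-10). C8H4orf26, a gene known from tooth enamel, measured 0.316, 2.91 and 0.797 CPM against 760, 1435 and 568 CPM (9.29 ± 0.59, adjusted p 1.51e-06). FAM3B, a secreted cytokine-like protein, had 0 counts under the mouth label and 40.1, 56.7 and 35.5 CPM under the scrotum label, at least 166-fold higher. FMO2, a monooxygenase, also had 0 counts under the mouth label and was at least 155-fold higher. LGALS4, a galectin of digestive epithelium, rose by 4.20 ± 0.25, from 568, 574 and 416 CPM to 9378, 8414 and 10705 CPM. C7H6orf15 rose by 6.37 ± 0.35 to 4114, 2965 and 4928 CPM from 33.1, 72.4 and 40.4 CPM. Of 8 tested salivary, mucous and sweat gland genes 3 rose (ODAM, the peroxidase LPO and the keratin KRT19) and 1 fell: AQP5, a water channel of glands and sweat ducts, dropped by 5.74 ± 0.41 from 29.0, 52.1 and 45.2 CPM to 0.558, 0.713 and 1.25 CPM. When all 18 libraries were fitted together 1 of the gland genes was called higher and 1 lower, and LPO (3.0, adjusted p 0.295) and KRT19 (3.32, adjusted p 0.318) were not called.

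In the other direction, CCL27, a chemokine that skin keratinocytes make to draw T cells, measured 292, 281 and 236 CPM against 2.79, 1.43 and 0.624 CPM, and fell by 7.18 ± 0.34 (adjusted p 6.99e-13). SULT1E1, an oestrogen sulfotransferase, had 143 counts against 0, at least 34.5-fold lower. SERPINA3-2 had 181 counts against 0, at least 43.6-fold lower. PLA2G2F, an epidermal phospholipase, fell by 6.19 ± 0.46, from 33.1, 73.4 and 38.3 CPM to 0.558, 0.713 and 0.624 CPM. TMEM229B had 30.9, 108 and 42.0 CPM against 0 counts, at least 169-fold lower. Its adjusted p of 0.0301 was lost without mouth replicate 3 (0.0587) or scrotum replicate 3 (0.0889), and its fitted log2 value depends on the prior count.

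Growth factor ligands of the EGF family were higher with the scrotum label, while their receptors were not called. All 5 tested ligands other than NRG1 rose, and of 9 tested members in all 0 fell, with a median of 1.15. Epiregulin (EREG) measured 35.4, 47.5 and 54.2 CPM against 304, 283 and 266 CPM, a rise of 2.64 ± 0.23 (adjusted p 1.67e-08). Amphiregulin (AREG) rose by 2.48 ± 0.28, HBEGF by 2.25 ± 0.25, epigen (EPGN) by 1.72 ± 0.26 and TGFA by 1.15 ± 0.23, each without overlap of the libraries. The receptor EGFR, outside the naming rule, measured 44.2, 42.9 and 46.3 CPM against 37.9, 49.2 and 31.2 CPM and was not called (-0.16 ± 0.22, adjusted p 0.703). In the fit of all 18 libraries 2 members of the list were called, and the median over the members tested there was 0.18.

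Of 18 tested genes that respond to RAS-ERK signalling, 7 rose, 1 fell and 10 were not called, with a median of 0.66. EGR1 measured 20.2, 26.9 and 36.4 CPM against 325, 163 and 96.7 CPM, a rise of 2.80 ± 0.41 (adjusted p 0.000898). FOSL1, an AP-1 subunit, rose by 1.88 ± 0.26 and the receptor EPHA2 by 1.74 ± 0.21, while its relative EPHA4 fell by 1.24 ± 0.24. Leaving out 1 library in turn, 4 (without mouth replicate 2) to 9 members were called higher, and the count was 4 with library size alone and 3 with 18 libraries (0 lower). Among 11 AP-1 and immediate early genes, 3 rose and 1 fell (2 and 0 with 18 libraries). FOS measured 11.7, 12.8 and 22.3 CPM against 548, 353 and 205 CPM and rose by 4.55 ± 0.37 (adjusted p 6.11e-07). ZFP36, which destabilises cytokine mRNA, rose by 2.40 ± 0.27 and JUNB by 1.54 ± 0.24, while EGR3 fell by 1.55 ± 0.26. PTHLH, the parathyroid hormone-related peptide, named outside the rule, measured 6.0, 3.39 and 4.78 CPM against 199, 227 and 84.8 CPM and rose by 5.18 ± 0.36 (adjusted p 1.31e-08).

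In the TGF-beta and BMP pathway 16 genes were tested, of which 5 rose and 2 fell. When all 18 libraries were fitted together 3 were called higher and 0 lower, so that BMP7 (adjusted p 0.223) and TGFBI (adjusted p 0.0891) lost their calls. The ligand BMP2 measured 8.21, 5.57 and 11.2 CPM against 148, 156 and 67.4 CPM, and rose by 3.90 ± 0.33 (adjusted p 7.51e-08). BMP7 fell by 1.15 ± 0.28 and the matrix protein TGFBI by 1.55 ± 0.22. Vitamin A and steroid genes were mixed: of 16 tested, 5 fell, 3 rose and 8 were not called (4 lower and 1 higher with 18 libraries). CRABP2, which carries retinoic acid to its receptor, measured 552, 485 and 347 CPM against 83.1, 59.6 and 59.2 CPM and fell by 2.77 ± 0.24 (adjusted p 1.76e-08). STRA6, a retinol uptake receptor, fell by 3.00 ± 0.49 and the reductase DHRS3 by 1.35 ± 0.27, while ALDH1A3, which makes retinoic acid, rose by 2.12 ± 0.42. ALDH1A1, of the same enzyme family but from the detoxification list, measured 1.26, 0.242 and 1.06 CPM against 60.2, 32.8 and 68.6 CPM and rose by 5.97 ± 0.43 (adjusted p 3.64e-09).

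Inflammatory mediators were higher with the scrotum label. Of 11 tested, 9 rose, 0 fell and 2 were not called, with a median of 1.77. The median was 3.22 to 3.59 without any 1 mouth library or scrotum replicate 3, and 1.53 without scrotum replicate 2. The members that pass the filter can differ between these fits. IL1A, an alarmin of keratinocytes, measured 13.3, 17.9 and 15.7 CPM against 162, 186 and 74.8 CPM, a rise of 3.17 ± 0.29 (adjusted p 9.16e-08). IL24 had 1 count under the mouth label and 12.8, 10.7 and 9.35 CPM under the scrotum label (a ratio of 126, interval 22 to 5025). OSM, oncostatin M, had 2 counts under the mouth label and 14.2, 13.6 and 8.73 CPM under the scrotum label (a ratio of 71.2, interval 19.2 to 596). The neutrophil chemokine CXCL2, named after its values were seen, measured 3.16, 0.485 and 5.32 CPM against 116, 153 and 46.8 CPM and rose by 5.15 ± 0.71 (adjusted p 0.00419). IL33 rose by 1.74 ± 0.24, the prostaglandin synthase PTGES by 1.77 ± 0.26 and CCL2 by 1.08 ± 0.23. CXCL8, at 6.31, 1.21 and 22.3 CPM against 342, 316 and 140 CPM, did not pass the test (4.74 ± 1.01, adjusted p 0.0511), and passed without mouth replicate 2 (4.19, adjusted p 0.00224) or 3 (6.21, adjusted p 0.000407). In the fit of all 18 libraries 4 members were called. The summed level of the neutrophil list overlapped between labels, at 6645 to 10064 CPM against 8879 to 15156 CPM, and so did that of the macrophage list, at 268 to 455 against 227 to 435 CPM. Their part in the cytokine differences was not tested.

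Of 21 tested proteases and inhibitors of tissue remodelling, 10 rose, 1 fell and 10 were not called, with a median of 0.28 that turned to -0.06 with library size alone, where 9 were higher and 5 lower. MMP1, the interstitial collagenase, measured 2428, 1118 and 2706 CPM against 10007, 10692 and 7485 CPM, a rise of 2.17 ± 0.29 (adjusted p 2.00e-05). MMP3, stromelysin, measured 23.7, 14.1 and 33.5 CPM against 399, 309 and 253 CPM and rose by 3.76 ± 0.29 (adjusted p 8.51e-09). SERPINE2, a thrombin and plasmin activator inhibitor, measured 26.5, 22.5 and 27.9 CPM against 1201, 1740 and 695 CPM and rose by 5.55 ± 0.31 (adjusted p 4.26e-11). The urokinase receptor PLAUR rose by 2.02 ± 0.33 and TIMP1 by 1.49 ± 0.25. MMP9 was not called, with mean levels of 236 and 260 CPM. When all 18 libraries were fitted together 4 members were called higher and 0 lower, MMP1 not among the former. Of 13 genes of epithelial-to-mesenchymal transition, 12 were not called and 1 rose, against 0 higher with 18 libraries and 0 higher and 3 lower with library size alone. CLU, the secreted chaperone clusterin, named outside the rule, measured 22.4, 31.5 and 24.5 CPM against 1169, 1735 and 661 CPM and rose by 5.49 ± 0.33 (adjusted p 3.71e-10).

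**Figure D5:**
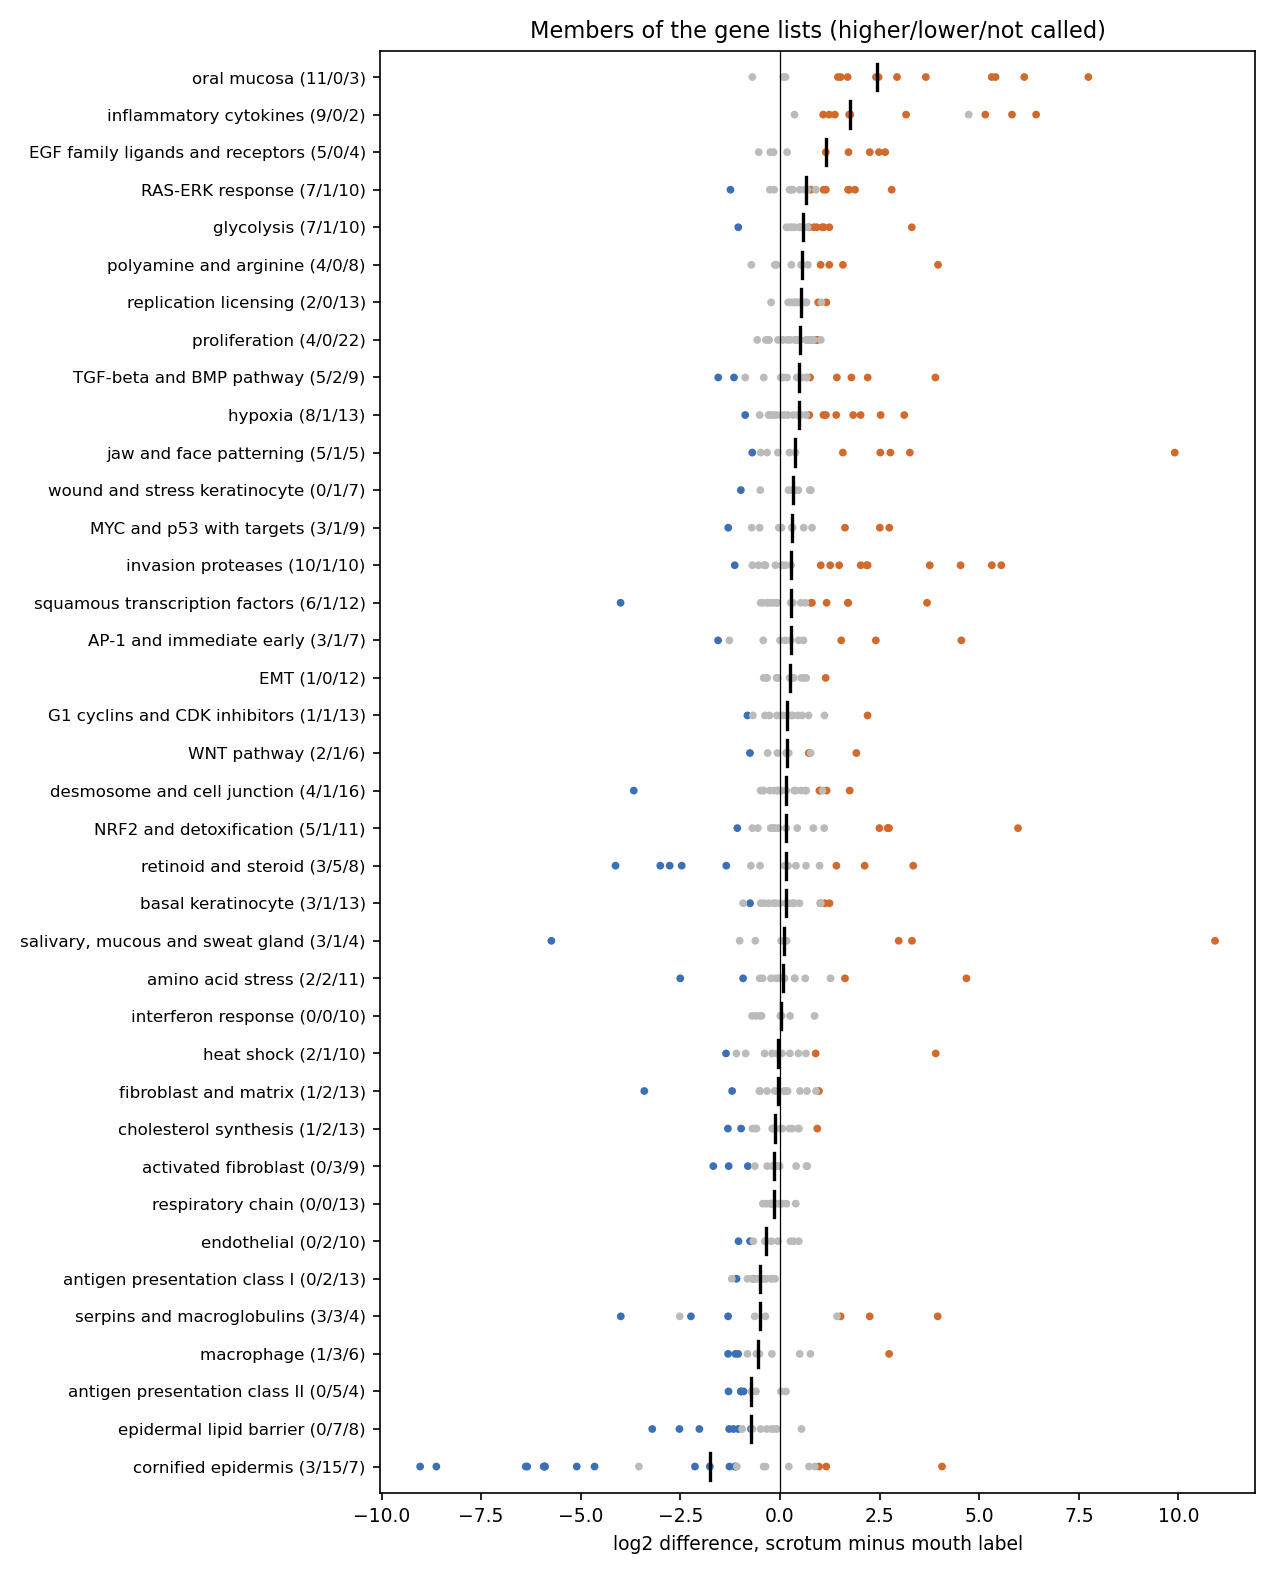
Log2 difference between tumours labelled scrotum and mouth for each tested member of the gene lists with at least 8 tested members, sorted by list median (black bar). Orange members rose, blue members fell and grey members were not called, and the counts beside each name give higher, lower and not called. Oral mucosa (11/0/3), inflammatory cytokines (9/0/2) and EGF family genes (5/0/4) have the highest medians, and cornified epidermis (3/15/7) the lowest.

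Several metabolic genes moved with the label. ARG1, which splits arginine into ornithine and urea, measured 652, 457 and 505 CPM against 7501, 12324 and 5504 CPM, a rise of 3.97 ± 0.29 (adjusted p 1.61e-09). The polyamine synthase SMS rose by 1.58 ± 0.25 and the catabolic enzyme SAT1 by 1.24 ± 0.22, and of 12 genes in that list 4 rose and 0 fell (2 and 0 with 18 libraries). Among 22 genes of the hypoxia response, 8 rose and 1 fell. Adrenomedullin (ADM) measured 9.15, 11.4 and 17.0 CPM against 168, 110 and 48.6 CPM, a rise of 3.12 ± 0.40 (adjusted p 0.000257), whereas CA9, a marker of hypoxic tumours, was not called (-0.29). Of 18 glycolysis genes 7 rose and 1 fell. The lactate exporter SLC16A3 rose by 3.31 ± 0.38, PGK1 by 1.10 ± 0.22, TPI1 by 1.06 ± 0.23 and ALDOA by 0.92 ± 0.21, while SLC16A1, the other lactate carrier, fell by 1.05 ± 0.24. In the fit of all 18 libraries 3 hypoxia genes and 1 glycolysis gene were called higher and 0 lower.

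Among 17 genes of the NRF2 and detoxification list, 5 rose, 1 fell and 11 were not called (4 higher and 0 lower with 18 libraries). GCLC, which limits glutathione synthesis, measured 12, 12.6 and 9.84 CPM against 72.5, 91.7 and 60.5 CPM and rose by 2.71 ± 0.24 (adjusted p 2.58e-08). HMOX1 rose by 2.71 ± 0.35 and malic enzyme ME1 by 2.49 ± 0.26. TXNRD1 and SRXN1, standard NRF2 targets, were not called (-0.16 and -0.19). NQO1, another such target, was called lower. Its call was lost in 3 of the fits without 1 library (log2 differences -0.99 to -0.80, adjusted p 0.0688 to 0.105, edgeR). It was also lost with 18 libraries (-1.09, adjusted p 0.602). The serine synthesis enzyme PSAT1 fell by 2.50 ± 0.38, from 378, 280 and 164 CPM to 51.6, 26.8 and 66.7 CPM, and CHAC1, a stress-induced glutathione-degrading enzyme, rose by 4.68 ± 0.49, from 5.37, 4.60 and 5.32 CPM to 121, 220 and 51.8 CPM. The small heat shock protein CRYAB rose by 3.91 ± 0.42 and HSPB8 fell by 1.35 ± 0.25.

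Of 26 proliferation genes 4 rose, 0 fell and 22 were not called, with a median of 0.50, where 7.02% of all genes rose and 6.2% fell. Log2 differences were above 0 for 21 of them and below 0 for 5. The labels did not overlap for 10 higher and 1 lower, against 14.4% and 15.4% of all genes. With library size alone or with all 18 libraries 0 were called higher (edgeR), and without mouth replicate 2 or scrotum replicate 2 the number called was 0, with 2 to 6 without another library. The 4 that rose were RRM2, UBE2C, ANLN and TPX2, with log2 differences of 0.73 to 0.94, and each lost its call without mouth replicate 2 or scrotum replicate 2, as did RRM2, ANLN and TPX2 without mouth replicate 1, RRM2 and ANLN without scrotum replicate 1 and UBE2C without mouth replicate 3 (log2 differences 0.58 to 1.05, adjusted p 0.0503 to 0.229). MKI67, the standard marker of cycling cells, measured 6.63, 8.24 and 6.38 CPM against 10.9, 8.20 and 11.2 CPM and was not called (0.50 ± 0.31, adjusted p 0.347). CDKN1A (p21), which halts the cycle, measured 110, 132 and 145 CPM against 583, 813 and 383 CPM and rose by 2.20 ± 0.25 (adjusted p 1.10e-06). GADD45A, a stress gene of the p53 pathway, rose by 2.51 ± 0.22 and MXD1, an antagonist in the MYC network, by 2.74 ± 0.24. TP53INP1, another p53 target, fell by 1.30 ± 0.25.

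Of 9 class II antigen presentation genes 5 fell and 0 rose, with a median of -0.72 and summed levels of 768 to 797 CPM against 337 to 513 CPM. SLA-DQA1 fell by 1.29 ± 0.24 and SLA-DQB1 by 0.98 ± 0.22, while CD74 was not called (0.02), and 0 of the list were called with all 18 libraries in 1 fit (edgeR). Without scrotum replicate 2 the list had 2 calls, and without mouth replicate 1 or scrotum replicate 1 it had 3. TAP1, the class I peptide transporter, fell by 1.09 ± 0.25, from 24.3, 23.3 and 24.7 CPM to 11.2, 12.5 and 9.98 CPM, with 13 of 15 class I genes not called. All 15 class I genes had log2 differences below 0 (median -0.49), and with library size alone 11 were called lower, while 18 libraries gave 1. These SLA genes have near-identical copies, so their separate values are uncertain. None of 10 interferon response genes and none of 13 respiratory chain genes was called, whereas library size alone called 2 of each lower. The macrophage list gave 1 rise (CD68, 2.74 ± 0.36) and 3 falls among 10, none of which was called lower with 18 libraries, with C1QC falling by 1.30 ± 0.26. Of 6 tested genes of the neutrophil list 2 rose, 0 fell and 4 were not called, with 1 higher in the fit of 18 libraries. PADI4 was among those that rose, by 4.62 ± 0.40. No T or NK cell gene had enough reads for the filter (summed levels 4.25 to 9.45 against 2.85 to 6.69 CPM).

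Of 16 fibroblast and matrix genes 13 were not called, and 0 were called with 18 libraries (edgeR). COL1A1 rose by 0.98 ± 0.23, and decorin (DCN) fell by 1.20 ± 0.28 and PI16, of resting fibroblasts, by 3.40 ± 0.68. TNC, tenascin C of activated stroma, fell by 1.29 ± 0.23, from 75.8, 66.6 and 85.6 CPM to 28.7, 28.9 and 36.2 CPM, and the pericyte gene RGS5 by 1.87 ± 0.31. The other 4 of 5 tested pericyte genes were not called, and with 18 libraries 1 of that list was called lower. None of 7 smooth muscle genes was called. Pigment cell genes were close to absent under the scrotum label: PMEL measured 36.9, 45.6 and 30.0 CPM against 0.558, 1.43 and 1.87 CPM and fell by 5.0 ± 0.39 (adjusted p 2.41e-09), a call lost with 18 libraries (-4.97, adjusted p 0.0625). TYRP1 had 46 counts against 0, at least 11.1-fold lower, and the melanocyte list summed to 40.1 to 55.0 CPM against 4.28 to 5.30 CPM. FABP4, of fat and endothelial cells, had 123 counts under the mouth label and 2 under the scrotum label (a ratio of 44.5, interval 12.1 to 371). The other 4 of 5 tested adipocyte genes were not called, and with 18 libraries 0 of that list were called. Skeletal muscle genes summed to 5.68 to 11.6 CPM under the mouth label and 22.3 to 86.1 CPM under the scrotum label, with 1 of them tested and not called. With 18 libraries 4 of them were called higher and 0 lower, where 1.83% of all genes were called higher and 1.05% lower. HBB, a blood marker, was at 202, 7.13 and 17.5 CPM in the scrotum libraries against 1.58 to 4.78 CPM. The part of these other cell types in the epithelial differences was not tested.

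Nose tumours of the same founder did not side with 1 label. KRT1 was at 25820 ± 8926 CPM (SD, n = 3) in the nose tumours, HRNR at 860 ± 124 CPM, ASPRV1 at 5915 ± 1250 CPM and CASP14 at 878 ± 68.3 CPM, all within or above the range of the libraries labelled mouth. KRT3 at 22055 ± 11337 CPM, CRNN at 2700 ± 199 CPM and C7H6orf15 at 4051 ± 1155 CPM were on the side of those labelled scrotum. DEFB1 at 46.3 ± 46.0 CPM and MUC21 at 12 ± 4.10 CPM lay between the labels. These nose differences were not tested here.

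The same label difference in WT tissue was measured with the 12 libraries of both genotypes, which share 1 estimate of spread. There 1376 of 12406 genes were higher (11.1%) and 995 lower (8.02%) with the scrotum label (19.1% called), and the tumour difference differed from the WT difference for 1272 genes (10.3%), 544 of them higher (4.38%) and 728 lower (5.87%). Without WT mouth replicate 2 the WT calls were 900 higher and 652 lower. The calls on the difference of differences fell to between 276 and 355 higher and between 367 and 470 lower without WT mouth replicate 2 or 3, any 1 of the DIK mouth libraries, or DIK scrotum replicate 1 or 2. Of the 698 genes higher in tumours, 110 were higher in WT too, which is 15.8% of the tumour list and 10.7% of the WT list among genes tested in both, and 61 were lower in WT. Of the 617 genes lower in tumours, 46 were lower in WT too (7.46% of the tumour list and 6.72% of the WT list) and 99 were higher. The background for these overlaps is that, of all 9945 genes tested in both, 1026 were higher and 685 lower in WT. The WT libraries were of different make-up: skeletal muscle genes summed to 149208 to 389040 CPM under the WT scrotum label and 1348 to 4028 CPM under the WT mouth label. KRT1 in WT scrotum came almost wholly from 1 library, at 23.8, 25066 and 12.5 CPM in WT scrotum replicates 1 to 3 and at 23.1, 48.9 and 83.3 CPM in the WT mouth libraries. The WT scrotum values of KRT1, HRNR and DSC1 therefore rest on replicate 2.

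The difference of differences was called for several of the genes above. GLIPR1 measured 1.26, 0.727 and 0 CPM in tumours labelled mouth and 73.6, 82.0 and 35.5 CPM in those labelled scrotum, whereas in WT it was at 50.0 ± 27.8 CPM (SD, n = 3) under the mouth label and 1.52 ± 0.873 CPM under the scrotum label. The tumour difference of 6.58 and the WT difference of -4.98 differed by 11.55 (adjusted p 0.000195, edgeR). CCL27 differed by -10.78 (adjusted p 0.00813), CLU by 6.14 (adjusted p 0.000377), SERPINE2 by 4.09 (adjusted p 0.00464) and FOS by 3.60 (adjusted p 0.00890). KRT78 and LGALS4 were higher with the scrotum label in WT as well, by 5.87 and 4.65, and the tumour differences did not differ from these beyond error (-0.45, adjusted p 0.826, and -0.44, adjusted p 0.846), although a p that misses the threshold does not show that they are alike.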

How the data were processed

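TRIzol extracts of tissue stored in RNAlater were made into mRNA libraries with a VAHTS mRNA-seq V3 kit, per the labels' protocols. Reads were trimmed with fastp, aligned with HISAT2 2.1.0 and counted with HTSeq 0.11.2, per the submitters' processing notes. The authors deposited whole-number read counts per gene for all 18 libraries. The genome build, annotation and strand setting were not given in the sources used here.

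The counts were tested with edgeR 4.0.16 (quasi-likelihood test, robust, TMM scaling, R 4.3.3) on the 6 tumour libraries, after a filter at a minimum count of 10 and a minimum total of 15, with Benjamini-Hochberg adjustment over all 9945 genes passing and a threshold of 0.05. The WT difference and the difference of differences came from a fit of 12 libraries. limma 3.58.1 and DESeq2 1.42.0 gave alternatives. Counting intervals are exact at 95% and, like the limit of 3 counts, cover counting error only. RefSeq Sscrofa11.1 symbols matched 26838 of 27339 genes and gave gene order only.

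Genes named are the 15 largest and the 10 most abundant non-overlapping calls in each direction, up to 6 called members per list by adjusted p, the posterior HOX genes and the 5 largest differences of differences in each direction, with exceptions marked. Members and lists were chosen with earlier results of these data known. On simulated counts of the tumour comparison, for 9673 genes, 97 of 100 genes changed 4-fold were called and 30 of 97 changed 2-fold, with 8 false calls among 135. No other tested gene was changed there, and the spread was that estimated from the same 6 libraries. In the data 13.2% of genes were called, so these rates need not hold for the data. The 6 tumour libraries held 2024959 to 3940709 counts. Some genes that the naming rule or a list holds are not reported here.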

Additional observations from a re-analysis of the deposited data

Results flagged for a closer look

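The label difference in tumours differed from that in WT tissue for 1272 genes by a test of the difference itself (edgeR, 12 libraries). The 10 described here are the 5 largest in each direction among those also called in the tumour comparison. They also had a gene symbol, at least 10 CPM in the higher tumour group and no overlap of the labels. Their number and even split were thus set by the rule. Fitted values of genes with 0 counts in a group depend on the prior count.

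FAM3B differed by 14.04 (adjusted p 0.00759). It was at 40.1, 56.7 and 35.5 CPM in tumours labelled scrotum and at 0 in the WT scrotum libraries, and its only reads under the WT mouth label were in replicate 1 (0.957 CPM), without which the value was 10.31 (adjusted p 1.0). CRISP3, a cysteine-rich secretory protein, differed by 12.77 (adjusted p 0.0246). In tumours it measured 5.37, 7.27 and 3.99 CPM under the mouth label and 242, 234 and 122 CPM under the scrotum label, whereas WT mouth replicate 1 held 1237 CPM against 11.4 and 0.522 CPM in the other two. Its call was lost without WT scrotum replicate 1 or 2, any 1 of the DIK mouth libraries, or DIK scrotum replicate 1 or 2 (12.58 to 13.12, adjusted p 0.0579 to 0.0797). GLIPR1 differed by 11.55 (adjusted p 0.000195), FMO2 by 9.93 (adjusted p 0.00129) and C8H4orf26 by 8.95 (adjusted p 0.0034), and without WT scrotum replicate 2 they were at 11.33, 10.16 and 9.05.

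The 5 genes on the other side are HRNR with -16.98 (adjusted p 0.0169), C4H1orf68 with -16.88 (adjusted p 0.0327), TMEM229B with -15.11 (adjusted p 0.0301), DSC1 with -14.78 (adjusted p 0.00792) and SPTSSB with -14.00 (adjusted p 0.0119). In each, WT scrotum replicate 2 was far above the other two WT scrotum libraries: HRNR was at 0.418, 505 and 0.500 CPM, C4H1orf68 at 0.835, 1404 and 0 CPM, TMEM229B at 1.67, 68.4 and 1.5 CPM, DSC1 at 2.92, 72.4 and 0 CPM and SPTSSB at 2.92, 48.2 and 0 CPM. Without that library HRNR was at -8.63 (adjusted p 0.000252), TMEM229B at -11.17 (adjusted p 0.0180), DSC1 at -10.43 (adjusted p 0.000468) and SPTSSB at -10.16 (adjusted p 0.00195), and C4H1orf68 lost its call (-6.58, adjusted p 0.111). HRNR lost its call without WT mouth replicate 2 or 3 or any 1 of the DIK scrotum libraries (-17.34 to -16.70, adjusted p 0.0530 to 0.0644). TMEM229B lost its call without WT mouth replicate 2 or 3 or any 1 of the tumour libraries (-15.45 to -14.38, adjusted p 0.0561 to 0.0811). C4H1orf68 lost its call without any 1 of the WT mouth libraries, WT scrotum replicate 2 or any 1 of the tumour libraries (-19.20 to -6.58, adjusted p 0.0606 to 0.130).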

How the results depend on the processing

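In the tumour comparison, against 698 genes higher and 617 lower, scaling by library size alone gave 438 and 1465, 1 fit of all 18 libraries 236 and 136, an adjusted p under 0.01 457 and 350, and the 12 libraries of both labels, an alternative chosen after seeing the data, 212 and 91. Leaving out 1 library gave 523 to 765 higher and 403 to 660 lower. Of the 1315 calls, 344 were called in the same direction with 18 libraries and 285 with 12; the common biological coefficient of variation was 21.0% with 6 libraries and 38.6% with 12. KRT5 and KRT6A turned to -0.13 and -0.14 with library size alone. For the WT difference (1376 higher, 995 lower) library size alone gave 889 and 2282, and leaving out 1 library 900 to 1652 and 652 to 1139. For the difference of differences (544 and 728) leaving out 1 library gave 276 to 704 and 367 to 976. Other alternatives for the tumour comparison stayed within 1.5 times: DESeq2 gave 656 and 516, limma-voom 723 and 610, no filter 897 and 746, and 9 tumour libraries 582 and 536. With the replicate number as a block the counts were 742 and 624. Of the single genes followed, 14 lost their calls with that block (edgeR). Among them were KRT4 (adjusted p 0.113), KRT1 (0.0803), SERPINB13 (0.183) and CXCL2 (0.0962). Same-numbered libraries correlated in their deviations at 0.06, 0.02 and -0.05, and libraries of different number at -0.09 to 0.07. Values this weak cannot show whether the numbers pair the libraries. The posterior HOX difference of -16.15 CPM was -19.22 to -14.41 without 1 library. Of 205 genes named by the rule, 153 kept direction and call without any 1 library, 60 with both 12 and 18 libraries, and 0 reversed. At this depth a gene with no count in 1 tumour library may lie anywhere under 0.727 to 1.87 CPM.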

Other observations

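Protease inhibitors changed in both directions. Of 10 tested serpins, cystatins and macroglobulins, 3 rose, 3 fell and 4 were not called, against 13.2% of all genes called. Fitting all 18 libraries, 3 were higher and 0 lower. CSTB, an intracellular cystatin, measured 440, 368 and 333 CPM under the mouth label and 5286, 5307 and 6984 CPM under the scrotum label, a rise of 3.96 ± 0.25 (SE, log2 scale) with an adjusted p of 8.95e-11 (edgeR). A2ML1, a protease inhibitor of surface epithelium, rose by 2.25 ± 0.26 and SERPINB1, an inhibitor of neutrophil elastase, by 1.52 ± 0.21, while SERPINB10 fell by 2.23 ± 0.34. SERPINB13 fell by 1.30 ± 0.38, a call lost without mouth replicate 1 or 2 or scrotum replicate 1 or 2 (adjusted p 0.0773 to 0.133). SLPI, a secreted inhibitor of leukocyte proteases, measured 89.0, 119 and 89.3 CPM against 30.1, 43.2 and 37.4 CPM and fell by 1.43 ± 0.23 (adjusted p 0.000111). The libraries of the labels did not overlap for CSTB or SLPI, and SLPI was not called with 18 libraries (-1.43, adjusted p 0.39).

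Of 9 tested WNT pathway genes, 2 rose, 1 fell and 6 were not called, and 0 were called with 18 libraries (edgeR). WNT7B, a ligand of skin and oral epithelium, measured 4.73, 3.15 and 6.11 CPM against 13.7, 26.8 and 11.8 CPM and rose by 1.92 ± 0.36 (adjusted p 0.000544). PADI3, an enzyme that citrullinates hair follicle proteins, measured 1.26, 1.94 and 2.13 CPM against 46.6, 51.0 and 20.6 CPM and rose by 4.45 ± 0.36 (adjusted p 8.64e-09), while the other 4 tested genes of the hair follicle list were not called. RUNX2, a factor of bone and tooth, rose by 1.30 ± 0.29 (adjusted p 0.00355), from 11, 6.78 and 9.57 CPM to 27.0, 25.3 and 13.1 CPM. DHCR7, which catalyses the last step of cholesterol synthesis, fell by 0.98 ± 0.22 (adjusted p 0.00397), with 13 of 16 genes of that pathway not called. RUNX2 (adjusted p 0.104) and DHCR7 (adjusted p 0.669) lost their calls with 18 libraries.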
